A study of Mus musculus with 6 samples.

Results

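G-protein coupled receptors are surface proteins that cross the membrane repeatedly and pass the binding of a ligand to a G protein inside the cell. The genes described here are those receptors, in BCR-ABL1-transformed mouse pre-B cells, whose symbol is Gpr, S1pr, Lpar, P2ry, Ptger or Ffar followed by a number, or starts with Adora. Membership was set by symbol alone, but this group of genes was chosen with earlier results of these data known. Of 110 such symbols in a mouse gene table, 98 were measured by a probe set assigned to 1 gene, out of 19938 genes tested. The other 12, among them all 4 Adora genes for adenosine receptors and Lpar5, were not analysed here. A symbol of this form does not make a protein a signalling receptor: 9 of the 98 genes, such as Gpr155, Gpr137 and Gpr89, encode membrane proteins of organelles or of atypical kind, and 1 of those 9, Gpr137b-ps, is named as a pseudogene.

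Gene expression was read on 6 arrays of total RNA. The 3 CRE-ERT2 arrays came from cells transduced with PMIP-CRE-ERT2, which carries the Cre recombinase fused to a tamoxifen-responsive hormone-binding domain. The 3 ERT2 arrays came from cells transduced with PMIP-ERT2, which carries that domain without Cre. Cells of both groups were of strain 129P2/OlaHsd, carried 1 floxed and 1 wild-type allele of Ptpn6 (Ptpn6 +/fl), were puromycin-resistant and had been exposed for 2 days to 0.5 micromolar 4OH-Tamoxifen, so full loss of Ptpn6 is not part of the design and there was no CRE-ERT2 group without the floxed allele or without tamoxifen. No label states that the 3 replicates of a group were separate cultures or animals, and the p-values then cover only the spread among these arrays, possibly a technical one.

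In lymphocytes, receptors of these families read lysophospholipids such as sphingosine-1-phosphate (S1P) and lysophosphatidic acid (LPA), nucleotides released by damaged cells, prostaglandins, short-chain fatty acids and acidity. S1pr1 is known for guiding lymphocytes out of lymphoid tissue along an S1P gradient, and the nucleotide, proton and orphan receptors of blood cells couple variously to G proteins that raise or lower cyclic AMP or release calcium. Signals are limited inside the cell by RGS proteins, which speed the switching off of G proteins, and outside it by enzymes that make or break down the ligands.

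Of the 98 receptor genes, 6 rose and 4 fell in CRE-ERT2 arrays and 88 did not pass (limma with Benjamini-Hochberg adjustment over all genes, adjusted p under 0.05). That is 10.2% of the receptor genes, against 4.58% of all genes tested. The 6 that rose are 6.12% of the receptor genes, against 2.3% of all genes tested that rose. The 4 that fell are 4.08%, against 2.28% of all genes tested. At an unadjusted p under 0.05 the counts were 22 receptor genes, or 22.4%, against 16.4% of all genes. The 6 that rose were S1pr3, Ffar2, Gpr12, Gpr18, P2ry14 and Gpr63, and the 4 that fell were Gpr132, Gpr155, Gpr65 and S1pr1. The CRE-ERT2 values did not overlap the ERT2 values in any of these 10 genes. Groups without overlap were found for 23 of the 98 receptor genes, or 23.5%, and for 22.5% of all genes tested. The median log2 difference, CRE-ERT2 minus ERT2, was 0.00 over the receptor genes and -0.03 over all genes. Without CRE-ERT2 replicate 2, or without CRE-ERT2 replicate 3, the number that fell was 2 in place of 4.

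**Figure D1:**
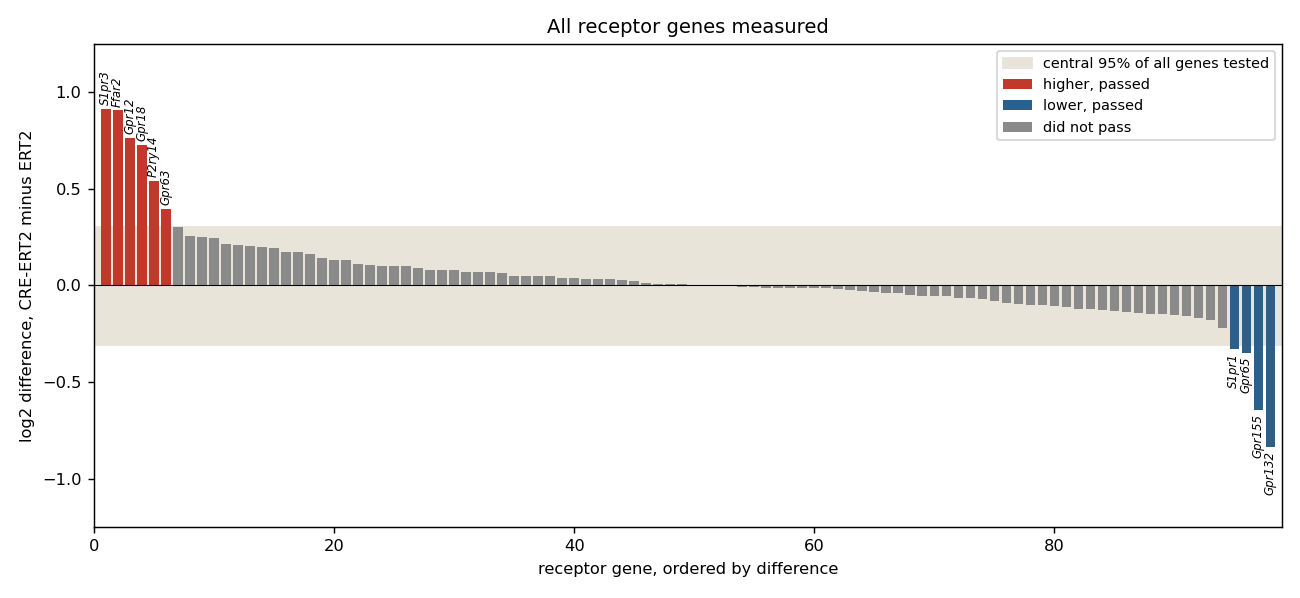
Log2 difference (CRE-ERT2 minus ERT2) of all 98 receptor genes, 1 bar each, ordered from highest to lowest, with genes past the threshold in red (higher) or blue (lower) and the central 95% of all genes tested shaded from -0.31 to 0.30. The 10 coloured bars are the 10 receptor genes outside the shaded range, with S1pr3 (0.91) at one end and Gpr132 (-0.84) at the other.

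Array values were log2 expression, without detection calls, so signal over background is unknown and the difference of a gene near background is compressed. A filter that leaves out the 6646 dimmest genes kept 58 of the 98 receptor genes. Of these 58, 11 passed under it, against 9.48% of the 13292 genes it kept. Ptpn6 itself, which encodes the phosphatase SHP-1, had log2 values of 11.36, 11.25 and 11.20 in CRE-ERT2 arrays, against 11.25, 11.39 and 11.39 in ERT2 arrays (difference -0.07, SE 0.08, limma adjusted p = 0.759). Whether its probe set lies in the floxed part is unknown, so this level does not check the labels. Of 9 pre-B cell markers measured only Cd22 passed, which is 11.1%, against 4.58% of all genes tested. Its difference was 0.37 (limma adjusted p = 0.0271, and up to 0.176 over the alternatives). The call was lost without replicate 1 of CRE-ERT2 or of ERT2 and without CRE-ERT2 replicate 3. The mean log2 level of the 9 markers was 12.31 to 12.39 in CRE-ERT2 arrays, against 12.21 to 12.29 in ERT2 arrays. The part of this level in the results below was not tested. Of 34 markers of T cells, NK cells, myeloid cells, erythroid cells and megakaryocytes, stroma and plasmacytoid dendritic cells, 0 passed with limma. Of the 34, 4 had an unadjusted p under 0.05, against 16.4% of all genes tested. The mean level of the 4 plasmacytoid dendritic cell markers was 8.51 to 8.66 in CRE-ERT2 arrays, against 8.70 to 8.75 in ERT2 arrays, without overlap. Of the 4, only Tcf4 (-0.17), the brightest, had groups without overlap. Those of Siglech (-0.14), Ccr9 (-0.15) and Bst2 (0.01) overlapped. Whether the share of dendritic cells differed between the groups was not tested. The part of this level was not tested either. In bulk RNA, fewer cells with a transcript and less transcript per cell cannot be told apart.

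The sequences upstream of 4 changed genes are shown because each has a single start site in the promoter table of RefSeq (build GRCm38.p6) and because the genes changed in opposite directions: they hold the largest rise (S1pr3) and the largest fall (Gpr132) among the receptor genes, a lymphocyte receptor that rose (Gpr18) and a proton sensor that fell (Gpr65). Gpr155 has a single start site too, and its window, which held the KLF letters 3 times and no other motif of those below, is not printed. Each line gives the 250 bases before the start site, read 5′ to 3′ on the strand of the gene. Gpr18 and S1pr3 were higher in CRE-ERT2 arrays, and Gpr132 and Gpr65 were lower. Capitals mark matches, on either strand, to 5 short motifs chosen after the calls were known: TGTGGT (RUNX), CAGGTG (an E-box), GGAAGT (ETS), CACCC (KLF) and GTAAACA (FOXO). The RUNX and KLF letters can share bases.
Gpr18, chr14:121915889-121916138, minus strand: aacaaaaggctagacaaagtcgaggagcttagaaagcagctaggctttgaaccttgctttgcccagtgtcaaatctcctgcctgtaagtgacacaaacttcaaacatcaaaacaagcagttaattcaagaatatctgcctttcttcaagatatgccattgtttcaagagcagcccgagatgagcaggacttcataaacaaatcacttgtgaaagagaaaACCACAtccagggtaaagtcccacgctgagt
S1pr3, chr13:51408368-51408617, plus strand: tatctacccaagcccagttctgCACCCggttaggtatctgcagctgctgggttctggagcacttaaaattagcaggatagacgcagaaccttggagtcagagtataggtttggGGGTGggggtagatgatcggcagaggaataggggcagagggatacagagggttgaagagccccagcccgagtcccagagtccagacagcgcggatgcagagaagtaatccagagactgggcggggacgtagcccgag
Gpr132, chr12:112860917-112861166, minus strand: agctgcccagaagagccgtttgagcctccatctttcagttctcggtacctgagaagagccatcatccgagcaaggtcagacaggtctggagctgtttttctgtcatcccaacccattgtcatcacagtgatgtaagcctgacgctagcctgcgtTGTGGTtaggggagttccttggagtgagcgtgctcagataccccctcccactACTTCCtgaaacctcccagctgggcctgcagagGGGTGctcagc
Gpr65, chr12:98268385-98268634, plus strand: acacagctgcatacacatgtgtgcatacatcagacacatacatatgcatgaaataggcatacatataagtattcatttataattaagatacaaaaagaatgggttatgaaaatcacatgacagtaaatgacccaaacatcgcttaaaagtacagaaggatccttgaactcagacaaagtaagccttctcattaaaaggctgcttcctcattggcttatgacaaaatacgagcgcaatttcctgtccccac

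The RUNX letters stood 31 bases before the start site of Gpr18 (as ACCACA) and 96 bases before that of Gpr132, a gene that changed in the opposite direction. Gpr132 also held the ETS letters 44 bases before its start. The KLF letters stood 228 and 137 bases before the start of S1pr3, which rose, and 11 bases before that of Gpr132, which fell. The window of Gpr65 held none of the 5 motifs. RUNX letters occurred in 14% of all 32851 promoter windows, ETS letters in 19.7% and KLF letters in 52.0%. Counted per gene, with any of its start sites, RUNX letters were found in 3 of the 9 changed receptor genes that have a promoter entry (Gpr12, Gpr132 and Gpr18), in 20 of the 77 receptor genes with an entry (26.0%) and in 15.9% of all genes. KLF letters were found in 7 of the 9, in 53 of the 77 (68.8%) and in 54.5% of all genes, and ETS letters in 3 of the 9, in 21 of the 77 (27.3%) and in 22.2% of all genes. E-box letters were found in 2 of the 9, in 20 of the 77 and in 19.4% of all genes, and FOXO letters in 1 of the 9, in 3 of the 77 and in 3.54% of all genes. These are matches of letters only. S1pr1 has no entry.

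The S1P receptors held changes in opposite directions. S1pr3, which couples to several classes of G protein, had log2 values of 9.41, 9.48 and 9.49 in CRE-ERT2 arrays, against 8.49, 8.59 and 8.57 in ERT2 arrays. All CRE-ERT2 arrays lay above all ERT2 arrays, by far more than either group spread, and the difference was 0.91 with an SE of 0.07, or 1.88-fold (limma adjusted p = 8.91e-06). S1pr1, the receptor of lymphocyte egress, had 7.35, 7.30 and 7.32 in CRE-ERT2 arrays, against 7.54, 7.74 and 7.68 in ERT2 arrays. Here the CRE-ERT2 arrays were the lower ones and lay close together, with a difference of -0.33 (SE 0.08), or 1.26-fold lower (adjusted p = 0.0256). The S1pr1 call was lost when any 1 of the CRE-ERT2 arrays was left out (adjusted p = 0.0620 without replicate 1, 0.10 without replicate 2 and 0.114 without replicate 3), without ERT2 replicate 2 (0.0780) or 3 (0.0562), and after a further quantile normalization (0.0517). S1pr3 passed under all 14 alternatives, with differences between 0.88 and 0.94. The 14 alternatives are not separate checks: averaging probe sets leaves the values of a gene with 1 probe set, such as S1pr3, unchanged.

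The remaining S1P receptors did not pass. The difference of S1pr2 was 0.13 (95% confidence interval -0.04 to 0.30), that of S1pr5, known from natural killer cells, 0.08 (-0.08 to 0.23), and that of S1pr4, a receptor of blood cells, 0.04 (-0.15 to 0.22). Of 13 genes that make, break down or export S1P, 1 rose and 0 fell. That is 7.69% of the list, against 4.58% of all genes tested. Spns2, the gene that rose, encodes an S1P exporter. Spns2 had 8.93, 9.03 and 9.0 in CRE-ERT2 arrays, against 8.67, 8.62 and 8.71 in ERT2 arrays, a difference of 0.32 (SE 0.07, adjusted p = 0.0217), and 8 of the 14 alternatives kept the call. Those that ended it included leaving out ERT2 replicate 1 or 2 or CRE-ERT2 replicate 2 or 3, with adjusted p of up to 0.108 over all alternatives. Acer3, an alkaline ceramidase gene, had the next smallest p (0.19, adjusted p = 0.284). The kinase genes Sphk1 (0.09) and Sphk2 (-0.11) and the S1P lyase gene Sgpl1 (0.10) did not pass. The median difference of the S1P metabolism genes was 0.05.

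**Figure D2:**
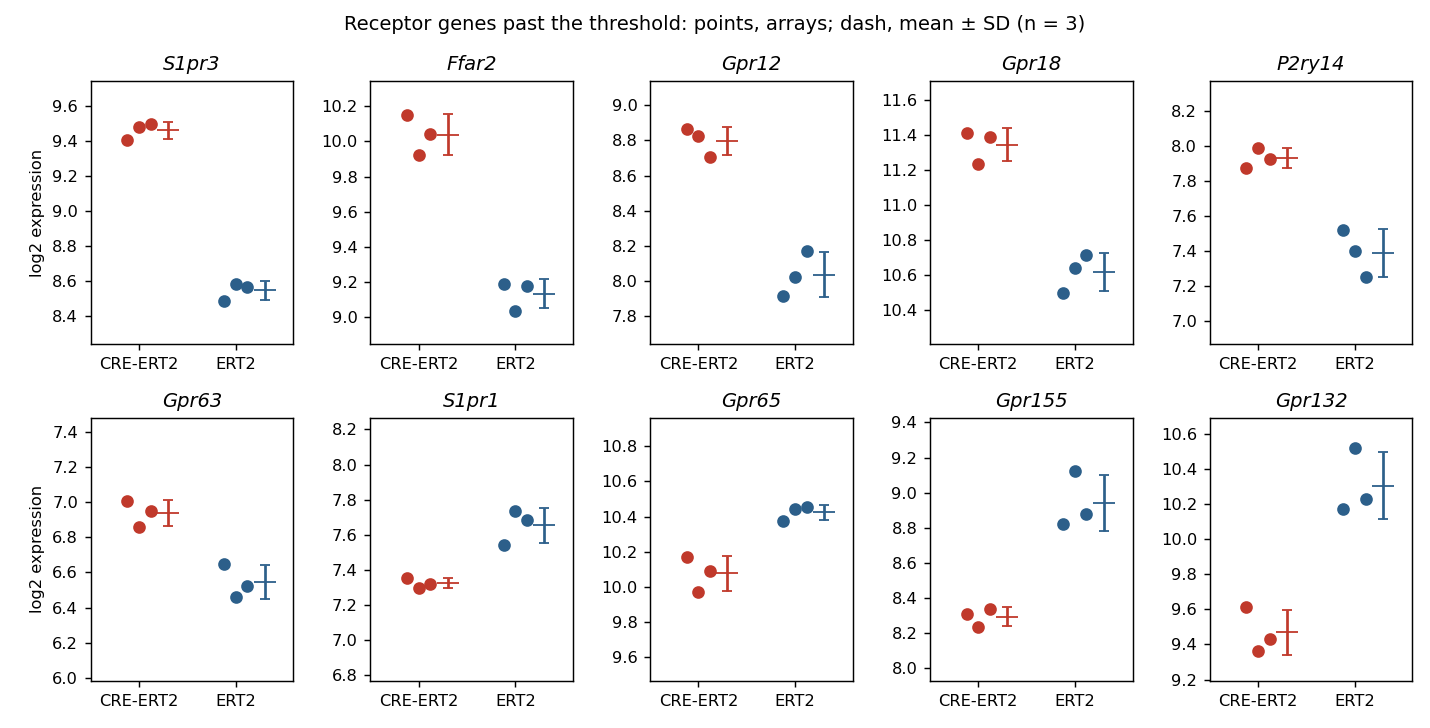
Log2 expression of the 10 receptor genes past the threshold, 1 point per array, with CRE-ERT2 on the left and ERT2 on the right of each panel and the dash and bar giving mean ± SD (n = 3). The vertical span is the same in every panel, and in all 10 genes the groups do not overlap.

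The receptors for short-chain fatty acids and nucleotides each had 1 member that rose. Ffar2, which binds acetate and propionate and is best known from neutrophils and the gut, had 10.15, 9.92 and 10.04 in CRE-ERT2 arrays, against 9.19, 9.04 and 9.18 in ERT2 arrays. The CRE-ERT2 arrays were all higher, by 0.91 (SE 0.08), or 1.87-fold (adjusted p = 2.90e-05), and the call was kept under all 14 alternatives. The neighbouring genes of Ffar2 on the same chromosome, Ffar3 (-0.04), also a short-chain fatty acid receptor, and Ffar1 (-0.13), a receptor for longer chains, did not pass. Ffar4 (-0.11) and Gpr84 (0.20), a receptor for medium-chain fatty acids, did not pass either.

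P2ry14, the receptor for UDP-glucose and related nucleotide sugars, had 7.87, 7.99 and 7.93 in CRE-ERT2 arrays, against 7.52, 7.40 and 7.25 in ERT2 arrays. All CRE-ERT2 arrays were above all ERT2 arrays, and the difference was 0.54 (SE 0.08), or 1.46-fold (adjusted p = 0.00185). The call ended with all 35556 probe sets in the test (0.0520). P2ry14 lies near other receptor genes on chromosome 3. The 3 others measured there had smaller positive differences that did not pass: P2ry12, the ADP receptor of platelets and microglia (0.30, 95% confidence interval 0.11 to 0.49, adjusted p = 0.0779), P2ry13, another ADP receptor (0.21), and Gpr171 (0.17). P2ry12 passed only with the dimmest genes left out (0.0444).

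The other nucleotide receptors did not pass: P2ry6, which binds UDP (0.25), P2ry2 (0.08) and P2ry4 (-0.04), which bind UTP, and P2ry1 (0.01), an ADP receptor. Of the 8 nucleotide receptors 7 had a positive difference, with a median of 0.14, and 38.9% of all genes tested had a positive one. Without ERT2 replicate 2 the difference of P2ry1 was -0.07.

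A list of genes that handle extracellular nucleotides and adenosine was, like every pathway list here, drawn up with earlier results of these data known. Its share of calls is therefore not an independent result. Of 20 genes measured, 5 rose and 3 fell, which is 40% of the list against 4.58% of all genes tested. The list median was 0.01. Nt5e, which encodes CD73, the enzyme that makes adenosine from AMP at the cell surface, had 8.98, 8.95 and 8.82 in CRE-ERT2 arrays, against 10.10, 9.93 and 9.85 in ERT2 arrays. Its difference of -1.05 (SE 0.08), or 2.06-fold lower (adjusted p = 1.25e-05), was larger than that of any receptor gene, and it passed under all 14 alternatives. Entpd1, which encodes CD39, the enzyme that turns ATP and ADP into AMP, rose by 0.33 (SE 0.08, adjusted p = 0.0303). Adk, the kinase that removes adenosine inside the cell, fell by 0.33 (SE 0.08, adjusted p = 0.0355), and the phosphatase gene Alpl fell by 0.40 (SE 0.08, 0.00750). Bst1, which encodes CD157, a relative of the NAD-degrading enzyme CD38, rose by 0.31 (0.0271).

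The ATP-gated channel genes P2rx7 (0.48), P2rx3 (0.52) and P2rx4 (0.36) rose, while P2rx1 (0.22) and P2rx5 (0.03) did not pass. P2rx7, known for opening in response to high ATP on immune cells, had 9.40, 9.31 and 9.36 in CRE-ERT2 arrays, against 8.88, 8.95 and 8.81 in ERT2 arrays (SE 0.07, adjusted p = 0.00176), and passed under all 14 alternatives. The groups did not overlap for P2rx7. A second P2rx3 probe set differed by 0.02, and the mean of both did not pass (0.27, adjusted p = 0.0541). Without CRE-ERT2 replicate 1 or ERT2 replicate 1 the calls of P2rx4, Entpd1, Adk and Bst1 were lost, and that of Alpl without CRE-ERT2 replicate 3 (adjusted p = 0.0528). Entpd1, Adk and Bst1 were also lost without CRE-ERT2 replicate 2 or 3, and Bst1 without ERT2 replicate 2 or 3, with an adjusted p of up to 0.157 when 1 array was left out (Adk without CRE-ERT2 replicate 2).

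**Figure D3:**
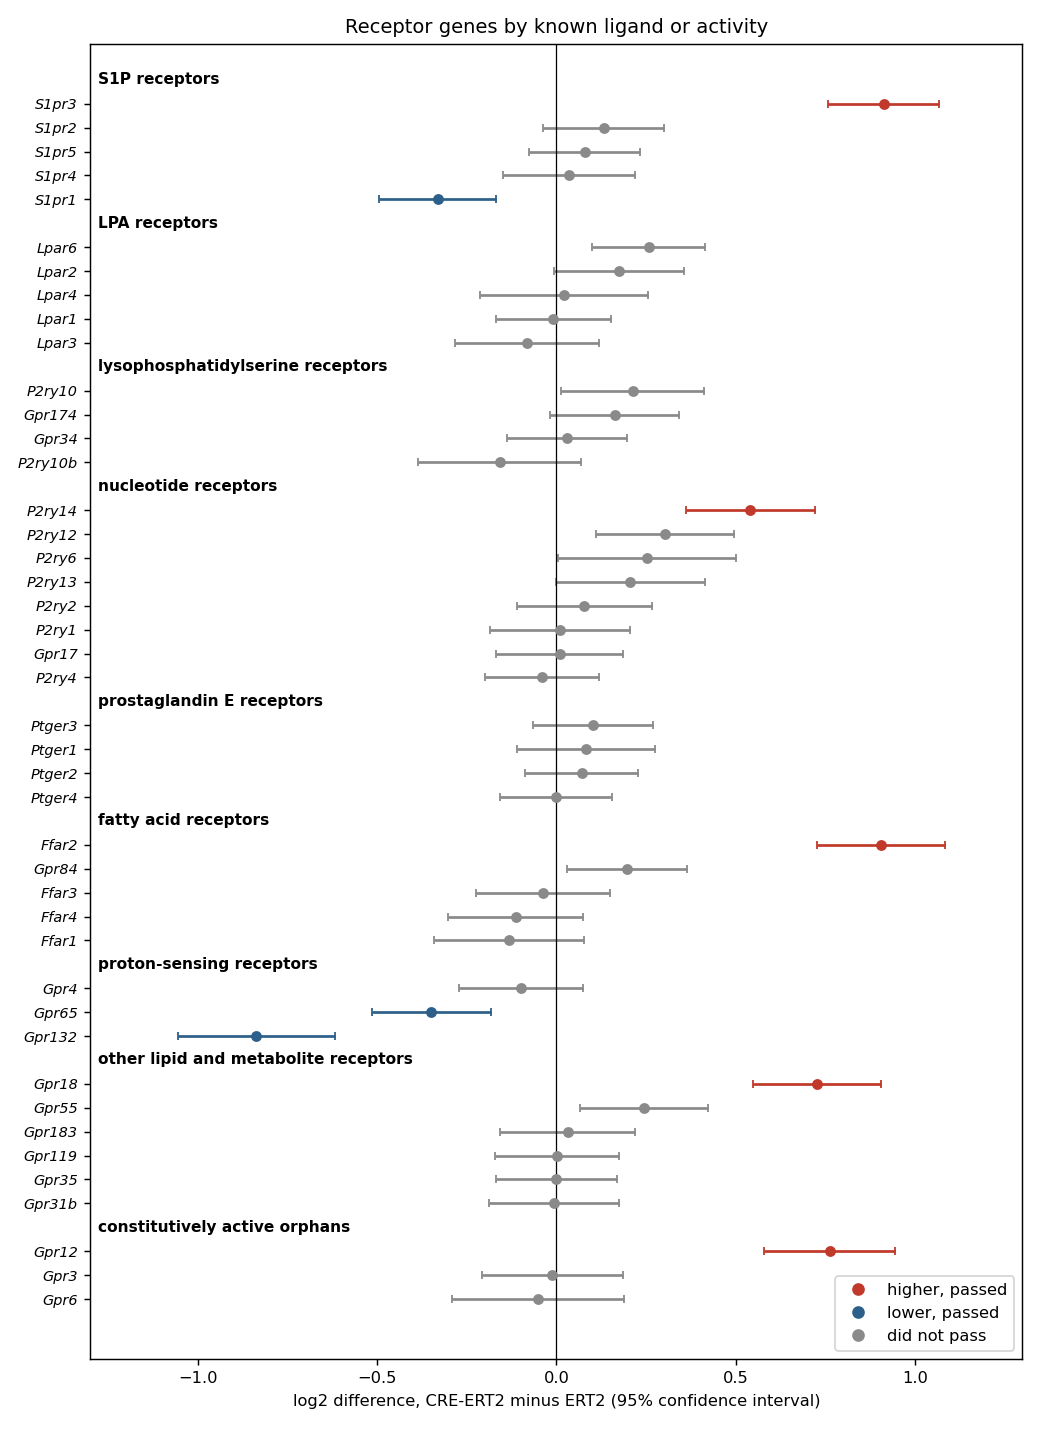
Log2 difference (CRE-ERT2 minus ERT2) with its 95% confidence interval from limma for the receptor genes with a known ligand or activity, grouped by it, with red for genes that passed and were higher, blue for those that passed and were lower and grey for those that did not pass. S1pr3 and S1pr1 lie on opposite sides of 0, and Gpr132 and Gpr65 lie below it.

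Of the 3 proton-sensing receptors measured 2 fell, against 2.28% of all genes tested. Gpr132, a lymphocyte receptor tied to acidity and to oxidised and lysophospholipids, had 9.61, 9.36 and 9.43 in CRE-ERT2 arrays, against 10.17, 10.52 and 10.23 in ERT2 arrays. Every CRE-ERT2 array was below every ERT2 array, and the difference of -0.84 (SE 0.10), or 1.79-fold lower (adjusted p = 0.000266), was the largest fall among the 98 receptor genes. Gpr65, also called TDAG8, which raises cyclic AMP when the surroundings are acid, had 10.17, 9.97 and 10.09 in CRE-ERT2 arrays, against 10.38, 10.44 and 10.46 in ERT2 arrays. Its difference was smaller at -0.35 (SE 0.08, adjusted p = 0.0198), and its call was lost without CRE-ERT2 replicate 2 (0.108) or replicate 3 (0.0874). Gpr4, the proton sensor of blood vessels, did not pass (-0.10, 95% confidence interval -0.27 to 0.07). Gpr132 passed under all 14 alternatives.

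No receptor for LPA, lysophosphatidylserine or prostaglandin E passed. Of the LPA receptors, Lpar6, known from human hair growth, came nearest, with 11.79, 11.72 and 11.77 in CRE-ERT2 arrays, against 11.58, 11.43 and 11.50 in ERT2 arrays. The groups did not overlap for Lpar6, but its difference of 0.26 (SE 0.07) had an adjusted p of 0.0674, which ran from 0.0132 to 0.228 over the alternatives and passed in 4 of 14. Lpar2 (0.17), Lpar4 (0.02), Lpar1 (-0.01) and Lpar3 (-0.08) did not pass, and the sign of Lpar4, Lpar1 and Lpar3 turned when single arrays were left out. Of the receptors for lysophosphatidylserine, P2ry10 (0.21) and its close paralog P2ry10b (-0.16), Gpr174 (0.16) and Gpr34 (0.03) did not pass. The P2ry10 and P2ry10b probe sets could in part read each other's transcripts.

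The prostaglandin E receptors Ptger1 (0.08), Ptger2 (0.07), Ptger3 (0.10) and Ptger4 (0.00) did not pass. Ptger4, which raises cyclic AMP in lymphocytes, had 10.80, 10.67 and 10.66 in CRE-ERT2 arrays, against 10.70, 10.73 and 10.70 in ERT2 arrays, and its 95% confidence interval ran from -0.16 to 0.15. The ERT2 values of Ptger4 lay within the CRE-ERT2 values. Of 18 genes of prostaglandin synthesis and other prostanoid receptors, 1 fell and 0 rose. That is 5.56% of the list, against 4.58% of all genes tested. The gene that fell was Ptgr1, a reductase that inactivates prostaglandins and leukotriene B4 (-0.42, SE 0.07, limma adjusted p = 0.00429). It passed under all 14 alternatives, and the prostacyclin receptor gene Ptgir (-0.22, adjusted p = 0.169) had the next smallest p.

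Among genes that make or clear LPA and other lysolipids, 1 rose and 2 fell of 14 measured. That is 21.4% of the list, against 4.58% of all genes tested, and the list median was -0.07. This list too was drawn up with earlier results of these data known. Plpp3, a surface phosphatase that destroys LPA and S1P, had 8.24, 8.14 and 8.30 in CRE-ERT2 arrays, against 7.63, 7.74 and 7.63 in ERT2 arrays. The CRE-ERT2 arrays were all higher, by 0.56 (SE 0.08, adjusted p = 0.000664), and the call was kept under all 14 alternatives. Pla2g4a, the cytosolic phospholipase that frees arachidonic acid, fell by 0.45 (SE 0.09, 0.0121), and Lpcat2, an acyltransferase that also makes platelet-activating factor, fell by 0.43 (SE 0.08, 0.00733). Both calls were lost without CRE-ERT2 replicate 3, and that of Pla2g4a also without CRE-ERT2 replicate 2 or ERT2 replicate 1 (adjusted p of up to 0.135 for Pla2g4a and 0.0917 for Lpcat2 over all alternatives).

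Other receptors for lipids and metabolites included 1 that rose. Gpr18, an orphan or lipid-binding receptor of lymphocytes, had 11.41, 11.24 and 11.38 in CRE-ERT2 arrays, against 10.50, 10.64 and 10.71 in ERT2 arrays. Its CRE-ERT2 arrays were all higher, by 0.73 (SE 0.08), or 1.65-fold (adjusted p = 0.000169), under all 14 alternatives. Gpr183, also called EBI2, which lies next to Gpr18 on chromosome 14 and guides B cells along oxysterols, did not pass (0.03, adjusted p = 0.934). None of 4 oxysterol enzyme genes passed with limma. Of the 4, 0 had an unadjusted p under 0.05, against 16.4% of all genes tested. Cyp7b1 (-0.07) and Cyp27a1 (-0.07) had the smallest p. Gpr55, a receptor for lysophosphatidylinositol, had a difference of 0.24 (adjusted p = 0.132).

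Of the 3 orphan receptors known for raising cyclic AMP without a ligand, Gpr12 rose. It had 8.86, 8.82 and 8.71 in CRE-ERT2 arrays, against 7.91, 8.02 and 8.17 in ERT2 arrays. The difference was 0.76 (SE 0.08), or 1.70-fold (adjusted p = 0.000134), with no overlap between the groups and under all 14 alternatives. Gpr3 (-0.01) and Gpr6 (-0.05), its closest relatives, did not pass.

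Gpr155, which encodes a lysosomal membrane protein that senses cholesterol, fell. It had 8.31, 8.23 and 8.34 in CRE-ERT2 arrays, against 8.82, 9.12 and 8.88 in ERT2 arrays. The difference was -0.65 (SE 0.09), or 1.57-fold lower (adjusted p = 0.000680), with no overlap, and it passed under all 14 alternatives. The other 8 genes for organelle or atypical proteins did not pass, including Gpr107 (0.20), a Golgi protein, and Gpr89 (-0.18), a Golgi anion channel.

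The 46 remaining Gpr genes were assigned to no class here, whether or not a ligand is known. Of these 46, 1 passed, which is 2.17%, against 4.58% of all genes tested. Gpr63 had 7.0, 6.86 and 6.95 in CRE-ERT2 arrays, against 6.65, 6.46 and 6.52 in ERT2 arrays. The difference was 0.40 (SE 0.08, adjusted p = 0.0108), without overlap. Gpr63 is among the 6646 dimmest genes, and its call was lost without CRE-ERT2 replicate 1 (0.0553) or replicate 3 (0.0670). Of these remaining genes, the largest positive differences that did not pass were those of Gpr52 (0.21) and Gpr171 (0.17). On the negative side they were those of Gpr141b (-0.22), Gpr143 (-0.17), Gpr50 (-0.15) and Gpr62 (-0.15). Over all 46 the median was -0.02. Around the threshold, Gpr63 (0.0108) and Gpr65 (0.0198) were the last Gpr genes inside it by adjusted p, and Gpr55 (0.132) and Gpr107 (0.156) the first outside.

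**Figure D4:**
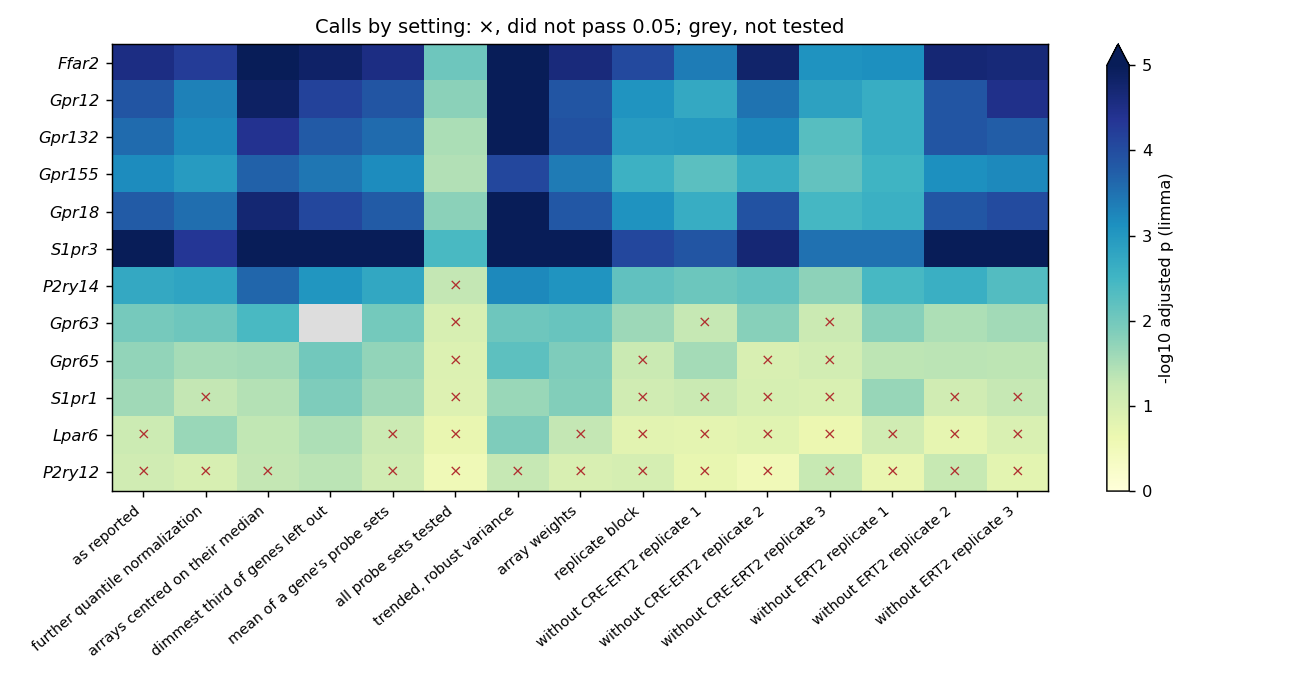
Limma adjusted p, as -log10, of the 12 receptor genes that passed under at least 1 setting (rows) as reported and under each of 14 alternatives (columns), with a cross where the gene did not pass and grey where it was not tested. Ffar2, Gpr12, Gpr132, Gpr155, Gpr18 and S1pr3 carry no cross, and S1pr1 carries 8.

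Inside the cell, changes stood in the gamma subunits of G proteins, in RGS proteins and in cyclic AMP signalling. The lists behind them were also drawn up with earlier results of these data known. Of 27 G protein subunit genes 3 rose and 0 fell, which is 11.1% of the list against 4.58% of all genes tested. The 3 were gamma subunits: Gng4 (0.47, SE 0.09), Gng2 (0.39, SE 0.07) and Gng12 (0.32, SE 0.08), with adjusted p of 0.00618, 0.00688 and 0.0304. Gng4 had 11.28, 11.13 and 11.31 in CRE-ERT2 arrays, against 10.63, 10.78 and 10.89 in ERT2 arrays, without overlap. None of the alpha subunit genes measured passed, among them Gnai2 (0.03), Gna13 (-0.03), Gnaq (-0.03) and Gna15 (0.08). Without CRE-ERT2 replicate 3 the calls of Gng4 (0.0546) and Gng12 were lost, and that of Gng12 also without CRE-ERT2 replicate 1 or 2 or ERT2 replicate 1 or 2 (adjusted p of up to 0.139 over all alternatives).

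Of 20 RGS genes 2 fell and 0 rose, which is 10% of the list against 4.58% of all genes tested, with a median difference of -0.06. Rgs18, a brake on G protein signalling best known from platelets and other blood cells, had 11.16, 10.87 and 11.20 in CRE-ERT2 arrays, against 12.20, 12.19 and 12.14 in ERT2 arrays. Its difference of -1.10 (SE 0.09), or 2.14-fold lower (adjusted p = 1.26e-05), was the largest in size among the 155 pathway genes measured. Rgs8, known from neurons, had 10.41, 10.29 and 10.28 in CRE-ERT2 arrays, against 10.89, 10.89 and 10.77 in ERT2 arrays (-0.52, SE 0.08, adjusted p = 0.00115). Both passed under all 14 alternatives. Rgs1 (-0.17), Rgs2 (0.16), Rgs13 (-0.09) and Rgs16 (-0.14), which act in B cells, did not pass. None of 13 receptor kinase and arrestin genes passed with limma. Of the 13, Arrb1 (-0.20) and Arrb2 (-0.20) had an unadjusted p under 0.05, as did 16.4% of all genes tested.

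Of 26 cyclic AMP genes 3 rose and 2 fell, which is 19.2% of the list against 4.58% of all genes tested, with a median of 0.02. Adcy6, an adenylate cyclase, had 11.05, 11.03 and 10.91 in CRE-ERT2 arrays, against 10.37, 10.42 and 10.36 in ERT2 arrays (0.62, SE 0.07, adjusted p = 0.000223). Adcy7, the cyclase typical of blood cells, rose by 0.37 (SE 0.07, 0.00962), and Rapgef3, which encodes the cyclic AMP sensor EPAC, rose by 0.34 (SE 0.07, 0.0205). The regulatory subunit genes of protein kinase A Prkar2a (-0.37, SE 0.09, 0.0327) and Prkar2b (-0.35, SE 0.08, 0.0188) fell. Adcy6 passed under all 14 alternatives and Adcy7 under 13. The other 3 calls were lost without ERT2 replicate 1 and without CRE-ERT2 replicate 2, those of Prkar2a and Prkar2b also without CRE-ERT2 replicate 3, and those of Prkar2a and Rapgef3 without ERT2 replicate 2 or CRE-ERT2 replicate 1. The highest adjusted p among these was 0.142, for Prkar2a without CRE-ERT2 replicate 3.

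**Figure D5:**
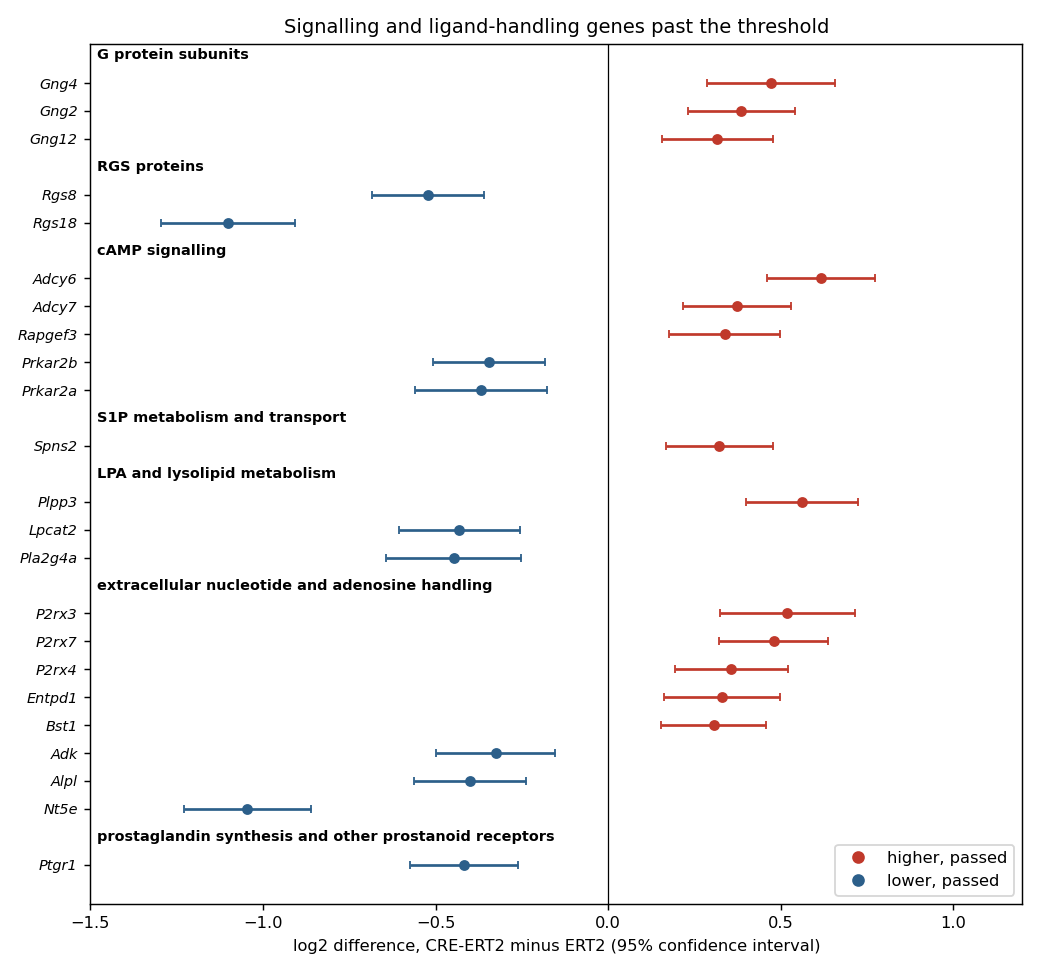
Log2 difference (CRE-ERT2 minus ERT2) with its 95% confidence interval from limma for the 23 genes of G protein signalling and ligand handling that passed the threshold, grouped by list, with red for higher and blue for lower. Rgs18 (-1.10) and Nt5e (-1.05) lie farthest below 0, and Adcy6 (0.62) lies farthest above it.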

How the data were processed

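The deposited table holds log2 expression by probe set (35556 probe sets) for 6 Affymetrix arrays. The submitters' processing notes list RMA, which background-corrects, normalizes and summarises arrays, and Partek 6.5, with no role or order. The log2 scale was inferred from the range of the authors' values. Array medians were 7.90 to 7.98, and arrays correlated with Pearson r of 0.991 to 0.996, so none was a duplicate. The small number of arrays limits the precision. Scan dates and detection calls were not used here.

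Of the probe sets, 21789 were assigned to 1 gene by the platform annotation, 1621 to several and 12146 to none. The RefSeq gene table of GRCm38.p6 held 21698 of the first kind, and 0 symbols changed. Each gene was read from its single-gene probe set of highest mean, giving 19938 genes. Titles gave groups and replicate numbers. CRE-ERT2 arrays were tested against ERT2 arrays with limma 3.58.1 under R 4.3.3 (two-sided moderated test from lmFit and eBayes, no covariates), Benjamini-Hochberg adjusted over all genes, threshold 0.05. On simulated data for this comparison (19938 genes, 10 runs, 200 changed genes), 38.4% of genes changed by 0.3 were called, 97.6% of those changed by 0.5 and 100% of those changed by 1. Unchanged genes made up 6.34% of the calls. The simulation drew independent normal noise for each gene, without effects shared by an array. It held 200 changed genes, while 914 genes were called in the data, and the adjustment depends on how many genes change. These shares may therefore not hold for the real arrays.

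The receptor genes, the 9 pathway lists (165 names, 155 genes measured), 7 marker lists, ligand classes, naming rule and alternatives were chosen with earlier results of these data known. The rule names every receptor gene past the threshold, every S1pr, Lpar, P2ry, Ptger and Ffar gene, the 8 Gpr genes with the largest rise and the 8 with the largest fall, those past the threshold included, 2 Gpr genes on each side of the threshold, list members past it or, where fewer than 2 passed, those of smallest p up to 2, and Ptpn6. Other genes were named after their values were seen: Gpr3, Gpr4, Gpr6, Gpr34, Gpr174 and Gpr183, the S1P kinase and lyase genes, P2rx1, P2rx5, the G protein alpha subunit genes, Cd22 and the RGS genes of B cells. Alternatives were a second quantile normalization, median centring of arrays, a filter on the 6646 dimmest genes, averaging the probe sets of a gene, a test over all probe sets, trended and robust eBayes, weighting of arrays, a block for replicate number, dropping each array in turn, and, for counts of receptor genes, symbols that end in the number only.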

Additional observations from a re-analysis of the deposited data

How the results depend on the processing

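The number of receptor genes that rose was 6 as reported and lay between 5 and 6 when single arrays were left out, and the number that fell was 4, between 2 and 4. The number that fell was 2 with all probe sets tested and 2 with the replicate number as a block. The median difference of the receptor genes lay between -0.03 and 0.04 when single arrays were left out. Over all genes, 914 passed as reported, 254 of the probe sets kept when all probe sets were tested, 1544 with a trended, robust variance, 589 with the replicate number as a block, and 453 to 979 when single arrays were left out, with the lowest counts without CRE-ERT2 replicate 3 (453), ERT2 replicate 1 (560) and CRE-ERT2 replicate 2 (574). The share of higher genes among those called was 50.2% as reported, 60.9% after a further quantile normalization, 38.0% with a trended, robust variance and 63.4% with all probe sets tested. Of the pathway list members, 23 passed as reported, 7 with all probe sets tested, 14 with the replicate block and 12 to 22 when single arrays were left out. The causes of these shifts were not tested. With all probe sets, both the number of features and the variance estimates moderated across them changed. Leaving out an array left fewer samples, yet the count was 979 without ERT2 replicate 3, above the 914 as reported.

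Same-numbered arrays did not deviate together (correlations of deviations from group means -0.11, -0.37 and -0.07). Some differently numbered arrays did: CRE-ERT2 replicate 1 with ERT2 replicate 2 (0.449), 2 with 3 (0.396) and 3 with 1 (0.18). The other differently numbered pairs were negative. Deviations from a group mean cancel out over the arrays of that group, so positive correlations must stand beside negative ones here. These values do not tell how the samples were made, and whether arrays of both groups were handled together was not tested. With the block for replicate number the receptor calls of Gpr65 (limma adjusted p = 0.0640) and S1pr1 (0.0781) were lost. With all probe sets tested the calls of P2ry14 (0.0520), Gpr63 (0.101), Gpr65 (0.121) and S1pr1 (0.131) were lost, and 7 of the 23 pathway genes passed. Lpar6 passed after a further quantile normalization (0.0227), with centred arrays (0.0497), with the dimmest genes left out (0.0340) and with a trended, robust variance (0.0132). Over 73 named genes, 1008 values were computed under alternatives, of which 898 kept direction and side of the threshold, 86 lost a call, 5 gained one and 19 turned sign, all 19 in receptor genes that did not pass. Leaving out single arrays, these differences lay between -0.117 and 0.0163 for Ffar3, -0.0349 and 0.0367 for Lpar1, -0.150 and 0.0196 for Lpar3, -0.10 and 0.142 for Lpar4, -0.0653 and 0.107 for P2ry1, -0.017 and 0.155 for Ptger1, -0.0449 and 0.0231 for Ptger4, and -0.0343 and 0.0975 for S1pr4. Lpar1 was 0.01 with centred arrays, and Ptger4 was 0.0429 after a further quantile normalization and 0.0167 with centred arrays. Signal over background is unknown, which limits what can be said of dim genes such as Gpr63 and of the low S1pr1 values.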
